A study of Tupaia belangeri with 6 samples.

Results

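A set of 10 genes of glucocorticoid and stress-hormone signalling were followed in the prefrontal cortex (PFC) of the tree shrew, *Tupaia belangeri*, a small mammal close to primates: the receptors *NR3C1* and *NR3C2*, the receptor co-chaperones *FKBP4* and *FKBP5*, the CRH receptor *CRHR1* and CRH-binding protein *CRHBP*, the cortisol-regenerating enzyme *HSD11B1*, and the target genes *TSC22D3*, *SGK1* and *ZBTB16*. The members were found by gene name, from a list drawn up with earlier results of these data known, and rows that share a gene ID and chromosome were summed. Of the 10 names, 8 were found among 95863 loci, 22608 of which carry a gene name. No row carried the name *HSD11B1* or *SGK1*, so these 2 genes were not analysed here.

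The samples were PFC tissue from adult animals, 3 females (numbered 1, 3 and 4) and 3 males (1, 4 and 5), with 1 poly(A)-selected RNA-seq library per animal and no treatment named. All 3 males are listed at an older age than all 3 females in the study's sample overview, so sex and age cannot be told apart. The animals were anaesthetised before dissection, and no measure of circulating cortisol or of stress exposure was used here. Expression is given in TPM, a relative transcript abundance which corrects for transcript length and library size, and values are listed in the order females 1, 3, 4 and males 1, 4, 5.

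Cortisol crosses the cell membrane and binds 2 related nuclear receptors. The mineralocorticoid receptor (*NR3C2*) binds it with high affinity and is largely occupied at resting hormone levels, whereas the glucocorticoid receptor (*NR3C1*) is filled mainly during stress or at the daily peak. In the cytoplasm the receptors sit in an HSP90 complex in which *FKBP5* lowers hormone binding and *FKBP4* favours transport to the nucleus. The bound receptors switch on targets such as *TSC22D3* (the anti-inflammatory protein GILZ), *ZBTB16* (a zinc-finger repressor) and *FKBP5* itself, which closes a negative feedback loop. Upstream, CRH acts through *CRHR1* and is sequestered by *CRHBP*.

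All 8 genes found were expressed in every library. Their mean levels in TPM ran from 15.0 TPM (*NR3C2*) to 99.95 TPM (*TSC22D3*), and none differed between the sexes past the threshold. Over the 6 animals the mineralocorticoid receptor was highest where *CRHBP* was lowest, but whether this pair passed adjustment over 28 pairs depended on the measure (exact permutation adjusted p = 0.194 for Pearson's r, 0.0778 for Spearman's rho). The glucocorticoid receptor gave different patterns in TPM and in read coverage, the other per-gene value in the files, and its values are therefore given on both scales.

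The libraries held PFC-like RNA by their markers. Neuronal genes such as *SNAP25* and *SLC17A7* summed to between 6290 and 8275 TPM, and markers of hypothalamus and pituitary summed to between 2.05 and 12.04 TPM. Of the latter, *GH1* and *PRL* were listed at 0 in all libraries, which does not show absence, since common chaperone genes were listed at 0 too. Blood markers (4 of 7 with a row, chiefly haemoglobin genes) summed to 1275 to 2542 TPM in the females against 62.7 to 101 TPM in the males. Oligodendrocyte markers (3 of 6 with a row) summed to 348 to 482 TPM in the females against 80.7 to 236 TPM in the males, so both lists separated the sexes (two-sided exact permutation test, p = 0.1 for each, the smallest p that 3 against 3 allow). Markers of striatal projection neurons (3 of 6 with a row) lay at 110 to 119 TPM in female 1, female 3 and male 1 and at 25.3 to 26.4 TPM in the other libraries. In bulk tissue, fewer cells of a type and less RNA per cell cannot be told apart, and the part of these markers in the results below was not tested.

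**Figure D1:**
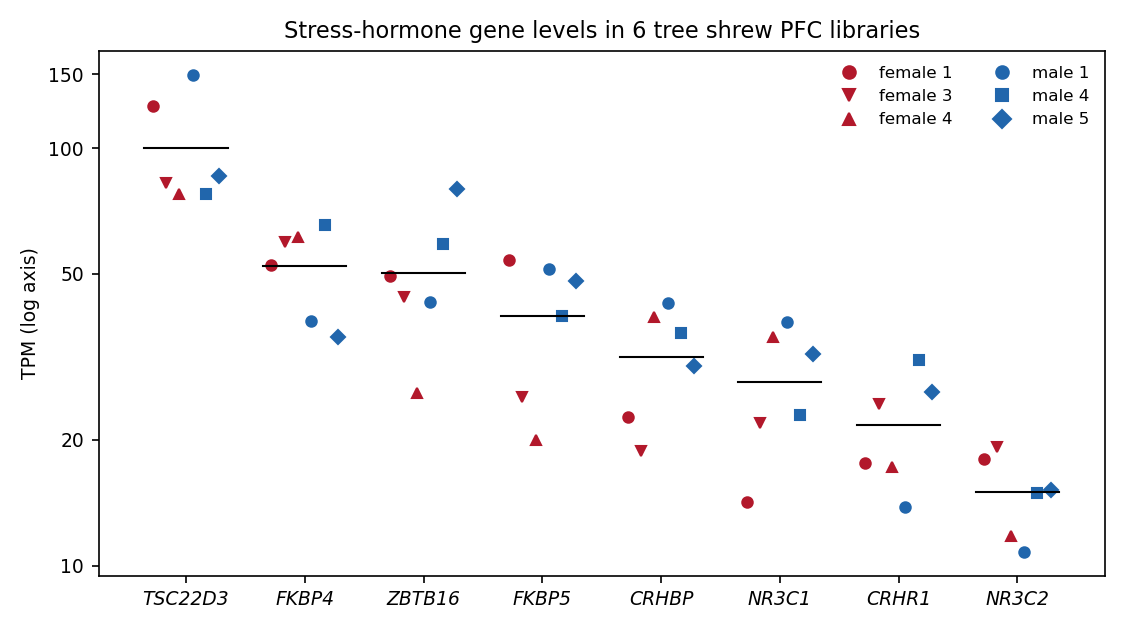
Level of each gene in each library in TPM (log axis); red symbols are females, blue symbols males, and the horizontal lines are means over the 6 libraries. *TSC22D3* was highest and *NR3C2* lowest by mean, and symbols of both sexes are mixed for every gene.

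The glucocorticoid receptor *NR3C1* (MSTRG.23283; TS_3.0 chromosome 18, 30019621 to 30126976, minus strand) had 14.2, 21.9 and 35.3 TPM in the 3 females, beside 38.3, 23.0 and 32.2 TPM in the 3 males. Its mean was 27.5 ± 9.23 TPM (SD, n = 6). Female 1 was the lowest library and male 1 the highest, a range of 2.69-fold, and the sexes overlapped.

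The mineralocorticoid receptor *NR3C2* (MSTRG.38961; chromosome 25, 34805050 to 35218362, minus strand) had 18.0, 19.3 and 11.8 TPM in the 3 females, beside 10.8, 14.9 and 15.2 TPM in the 3 males. Its mean of 15.0 ± 3.34 TPM (SD, n = 6) came with the smallest coefficient of variation (CV) of the 8 genes, 22.2% in TPM. Female 4 and male 1, the lowest libraries for *NR3C2*, were the highest for *NR3C1*. An unnamed locus on the opposite or no strand overlaps *NR3C2* with a mean of 4.28 TPM, and the sources used here do not state whether the libraries kept strand.

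**Figure D2:**
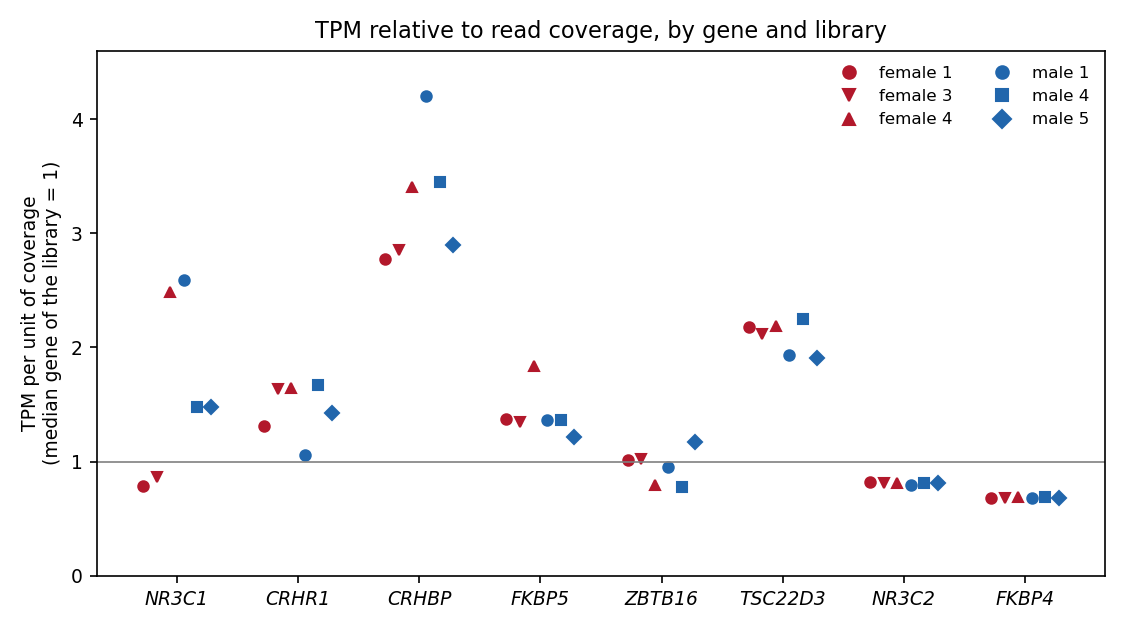
TPM divided by coverage for each gene and library, relative to the median gene of that library (grey line, 1); red symbols are females and blue symbols males. For *NR3C1* the value ran from 0.785 in female 1 to 2.59 in male 1, while for *NR3C2* and *FKBP4* the 6 libraries lie on top of each other.

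Coverage is the mean read depth over the exons of a locus, whereas TPM is summed over the transcripts to which reads were assigned. For most genes the ratio of TPM to coverage differs little between libraries: its highest value was 1.14 times its lowest in the median of 8597 named genes. For *NR3C1* it differed by 3.31-fold, and 0.849% of those genes had a larger spread. Relative to the median gene of the same library, TPM per coverage of *NR3C1* was 0.785, 0.869 and 2.49 in the 3 females, beside 2.59, 1.48 and 1.48 in the 3 males. The 2 libraries with the highest *NR3C1* TPM were thus those with the highest ratio. Scaled between libraries, *NR3C1* coverage was 15.5, 20.5 and 13.7 in the 3 females, beside 13.6, 13.6 and 18.2 in the 3 males. On this scale the range narrowed to 1.51-fold and female 3, not male 1, was the highest. Which transcripts of the locus received the reads was not analysed here.

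For *NR3C2* the ratio of TPM to coverage differed by 1.02-fold between libraries and for *FKBP4* by 1.02-fold. The other 5 genes lay between, at 1.18-fold for *TSC22D3* and 1.5- to 1.58-fold for *ZBTB16*, *FKBP5*, *CRHBP* and *CRHR1*.

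The co-chaperone *FKBP4* (MSTRG.53370; chromosome 6, 38226332 to 38241391, minus strand) had 52.4, 59.6 and 61.1 TPM in the 3 females, beside 38.6, 65.4 and 35.3 TPM in the 3 males, a mean of 52.1 ± 12.5 TPM (SD, n = 6). The females lay close together, and the males lay both below and above them. *FKBP5* (MSTRG.45277; chromosome 3, 124193937 to 124359985, plus strand) had 53.8, 25.3 and 19.9 TPM in the 3 females, beside 51.3, 39.7 and 48.2 TPM in the 3 males, a mean of 39.7 ± 14.2 TPM (SD, n = 6). Here the males lay close together, while female 1 was the highest of all libraries and females 3 and 4 the lowest. Other loci overlap *FKBP5*, among them *ARMC12* and *TULP1*, and the highest of them had a mean of 6.91 TPM.

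The CRH receptor *CRHR1* (MSTRG.17951; chromosome 15, 61030567 to 61083457, minus strand) had 17.6, 24.4 and 17.2 TPM in the 3 females, beside 13.8, 31.1 and 26.04 TPM in the 3 males. Male 1 was the lowest library and male 4 the highest, so the whole range of 2.25-fold lay within males. *CRHBP* (MSTRG.6298; chromosome 10, 97689070 to 97726738, minus strand) had 22.6, 18.8 and 39.4 TPM in the 3 females, beside 42.5, 36.1 and 30 TPM in the 3 males. Females 1 and 3 were below all males, and female 4 was above 2 of them. The peptide *CRH* itself had 29.7 ± 7.61 TPM (SD, n = 6), between the means of *CRHR1* (21.7 TPM) and *CRHBP* (31.6 TPM).

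Among the targets, *TSC22D3* (MSTRG.67767; contig5172, 12571 to 80777, plus strand) had 126, 82.4 and 77.7 TPM in the 3 females, beside 150 (149.9), 77.7 and 85.9 TPM in the 3 males. Female 1 and male 1 stood above the other libraries, which lay within 77.7 to 85.9 TPM. *ZBTB16* (MSTRG.62430; chromosome 9, 25384816 to 25615017, minus strand) had 49.4, 44.0 and 25.9 TPM in the 3 females, beside 42.8, 58.8 and 79.7 TPM in the 3 males. In TPM it had the widest range of the 8 genes, 3.07-fold, and the largest CV, 36.0%. In scaled coverage its range was 2.08-fold and its CV 29.3%, and *FKBP5* had the widest range, 3.31-fold, and the largest CV, 40.8%. The median CV of the 8 genes was 30.4%, beside 35.4% over the 19400 loci detected at 1 TPM or more in at least 3 libraries.

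By mean TPM the order was *TSC22D3*, *FKBP4*, *ZBTB16*, *FKBP5*, *CRHBP*, *NR3C1*, *CRHR1* and *NR3C2*. Among the 7 pairs of neighbours in this order, *TSC22D3* exceeded *FKBP4* in 6 of 6 libraries by 0.93 ± 0.68 on the log2 scale (SD; two-sided exact sign-flip permutation test, p = 0.0312, the smallest p that 6 libraries allow; adjusted p = 0.219 over 7 pairs). *CRHR1* exceeded *NR3C2* in 5 of 6 libraries by 0.51 ± 0.38 (exact p = 0.0625, adjusted p = 0.219). The other 5 neighbours differed by less than the spread between libraries, with exact p from 0.156 to 0.656. The pairs and their direction were taken from the same TPM values, so the p-values in TPM are no independent test of the order. The order holds for TPM alone. In coverage *FKBP4* was above *TSC22D3* in 5 of 6 libraries (log2 ratio of *TSC22D3* to *FKBP4* -0.68 ± 0.75, exact p = 0.125), *NR3C2* above *CRHR1* in 5 of 6 (-0.32 ± 0.34 for *CRHR1* to *NR3C2*, exact p = 0.0625) and *NR3C1* above *CRHBP* in 6 of 6 (-0.93 ± 0.59 for *CRHBP* to *NR3C1*, exact p = 0.0312). The other 4 pairs of neighbours kept their order by mean.

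Within a library, *NR3C1* stood above *NR3C2* in 5 of 6 libraries in TPM. The ratio was 0.788, 1.14 and 2.99 in the 3 females, beside 3.55, 1.54 and 2.12 in the 3 males, a mean log2 ratio of 0.83 ± 0.83 (SD, n = 6; two-sided exact sign-flip permutation test, p = 0.0938, adjusted p = 0.234 over 3 ratios). In coverage the same ratio was 0.821, 1.06 and 0.970 in the 3 females, beside 1.09, 0.847 and 1.16 in the 3 males, with a mean log2 ratio of -0.02 ± 0.20 (exact p = 0.812). The receptors thus did not differ past the threshold on either scale, and the wide ratios of female 4 and male 1 were present in TPM and not in coverage. Coverage was compared after the TPM results were known.

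The ratio of *FKBP4* to *FKBP5* was 0.974, 2.35 and 3.06 in the 3 females, beside 0.752, 1.65 and 0.733 in the 3 males, a mean log2 ratio of 0.45 ± 0.88 (SD, n = 6; exact sign-flip permutation p = 0.312). The balance thus lay towards *FKBP4* in 3 libraries and towards *FKBP5* in 3, and the mean fell to 0.21 without female 4 and 0.29 without female 3. In coverage *FKBP4* was higher in 6 of 6 libraries, by 1.48 ± 1.02 (exact p = 0.0312), and the lowest ratios were again those of male 5 and male 1. The ratio of *CRHBP* to *CRHR1* was above 1 in 5 of 6 libraries in TPM (mean log2 0.54 ± 0.73, exact p = 0.156) and in 1 of 6 in coverage (-0.63 ± 0.46, exact p = 0.0625). In TPM it was 1.29, 0.772 and 2.29 in the 3 females, beside 3.08, 1.16 and 1.15 in the 3 males, and the mean log2 ratio was 0.32 without male 1, the library with the highest ratio. The 3 ratios gave no difference between the sexes past the threshold, with exact permutation p of 0.4, 0.2 and 0.7 in TPM, where 3 against 3 cannot go below 0.1.

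**Figure D3:**
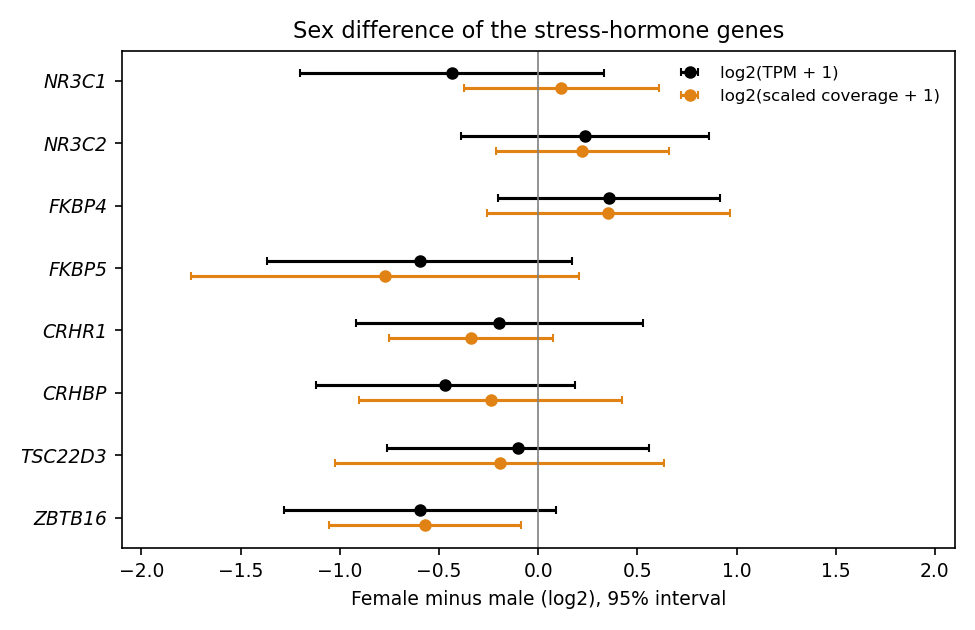
Female minus male difference of each gene on log2(TPM + 1) (black) and log2(scaled coverage + 1) (orange), points with 95% intervals from limma, n = 3 per sex. Every interval in TPM spans 0, and in coverage that of *ZBTB16* alone does not.

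For the comparison of females with males, limma was fitted to log2(TPM + 1) over 28741 loci. At an adjusted p under 0.1, 0 of the 8 genes differed, beside 0.0174% of all loci. At an unadjusted p under 0.05 the count was also 0 of 8, beside 5.01% of all loci, and the sexes overlapped for all 8, whereas they did not overlap for 9.8% of all loci. Adjusted p-values ran from 0.927 to 0.981.

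With all 6 libraries in TPM, the largest differences were those of the glucocorticoid targets *ZBTB16* and *FKBP5*, each lower in females by mean. *ZBTB16* differed by -0.60 (SE 0.30, 95% interval -1.28 to 0.09, limma adjusted p = 0.927) and *FKBP5* by -0.60 (SE 0.34, -1.37 to 0.17). *CRHBP* differed by -0.47 (SE 0.29, -1.12 to 0.19) and *NR3C1* by -0.43 (SE 0.34, -1.20 to 0.33). The order of these 4 rests on single libraries. Without female 4 the differences of *ZBTB16* and *FKBP5* were -0.32 and -0.31 and those of *CRHBP* and *NR3C1* -0.77 and -0.75. Without female 1 that of *NR3C1* was -0.13 and that of *FKBP5* -1.005. *CRHR1* (-0.20, SE 0.32) and *TSC22D3* (-0.10, SE 0.29) lay near 0, and each turned its sign when a single library was left out, male 4 for *CRHR1* (0.03) and male 1 (0.19) or female 4 (0.03) for *TSC22D3*. *FKBP4* (0.36, SE 0.24) and *NR3C2* (0.24, SE 0.27) were higher in females by mean, and ran from 0.19 to 0.63 and from 0.09 to 0.44 with single libraries left out, lowest without male 5 and male 1 and highest without male 4 and female 4. *CRHBP* ran from -0.77 to -0.25, the latter without female 3, and *ZBTB16* from -0.82 to -0.32. For every gene the interval holds differences larger than 0.5 on the log2 scale, so with 3 animals per sex a difference of that size may have gone undetected.

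The median difference of the 8 genes was -0.31, beside -0.03 over all loci, with 6 genes lower and 2 higher in females by mean. In coverage, *ZBTB16* differed by -0.57 (SE 0.20, limma adjusted p = 0.88). It was the 1 of 8 genes at an unadjusted p under 0.05 on that scale, beside 5.4% of all loci. *NR3C1* changed direction in coverage, from -0.43 to 0.12 (SE 0.20, 95% interval -0.37 to 0.61), and the other 7 genes kept theirs. These comparisons run beside the blood and oligodendrocyte markers, which were higher in every female, and beside age.

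**Figure D4:**
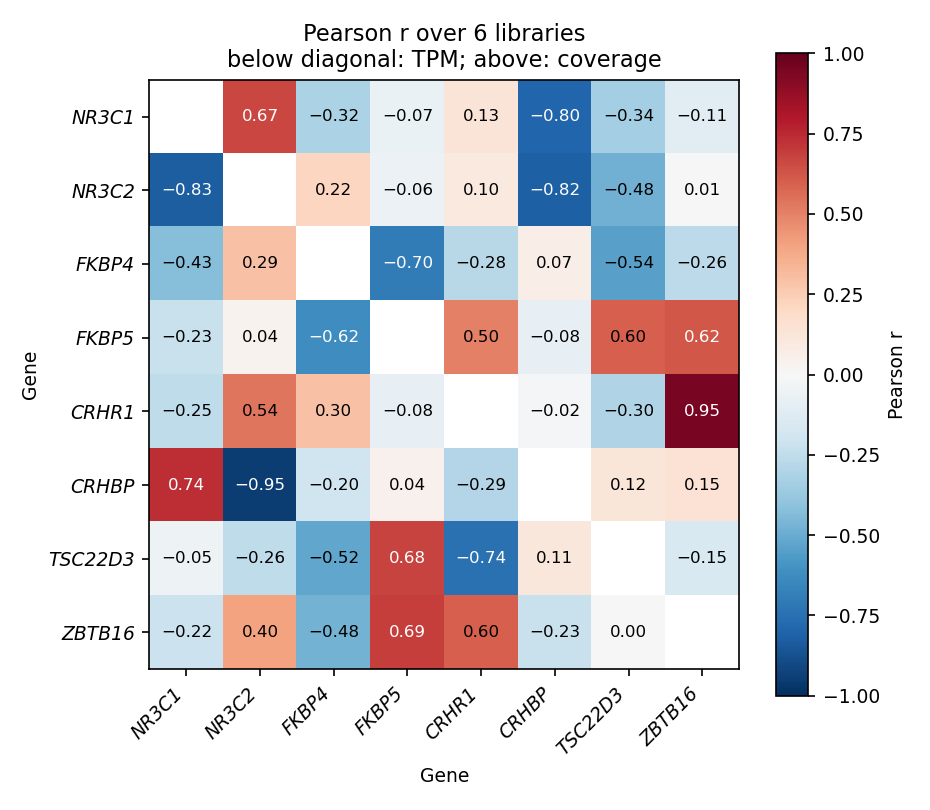
Pearson r of each pair of genes over the 6 libraries, on log2(TPM + 1) below the diagonal and on log2(scaled coverage + 1) above it; red is positive and blue negative. *NR3C2* with *CRHBP* was negative on both scales (-0.946 and -0.818), while *NR3C1* with *NR3C2* went from -0.826 to 0.667.

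Co-variation was described over the 6 libraries for the 28 pairs of genes. In TPM, 2 of 28 pairs reached an absolute Pearson r of 0.8, both negative, beside 7.92% of all pairs of detected loci. The median absolute r of the 28 pairs was 0.295, beside 0.385 over all pairs. After adjustment over the 28 pairs, 0 passed 0.1, and 2 had an unadjusted exact p under 0.05. In coverage 2 of 28 pairs reached 0.8, beside 8.47% of all pairs, 0 passed adjustment and 3 had an unadjusted exact p under 0.05. The count in TPM was 4 of 28 with each sex centred on its own mean, beside 13.0% of all pairs, and 5 of 28 by Spearman's rho, beside 7.89% of all pairs. With each of these measures 1 pair passed adjustment, *NR3C2* with *CRHBP*.

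In TPM, *NR3C2* and *CRHBP* were the closest pair, with r = -0.946 over the 6 libraries (two-sided exact permutation test, p = 0.00694, adjusted p = 0.194) and Spearman rho = -1.0 (exact p = 0.00278, adjusted p = 0.0778). In coverage *CRHR1* and *ZBTB16* were closer. Each step up in *NR3C2*, from male 1 through female 4, male 4, male 5 and female 1 to female 3, was a step down in *CRHBP*. Markers of SST, PVALB and VIP interneurons summed to 941, 775 and 1341 TPM in females 1, 3 and 4 and to 1283, 1161 and 737 TPM in males 1, 4 and 5, so the 3 libraries with the most *CRHBP* were also the 3 highest in these markers. The rest of the order did not match, since male 5 was lowest in these markers but had more *CRHBP* than females 1 and 3. Astrocyte markers were lowest in female 4 (1404 TPM) and male 1 (1432 TPM), where *NR3C2* was lowest, and lay at 1906 to 2184 TPM in the other 4 libraries. Male 4, the highest in astrocyte markers, had less *NR3C2* (14.9 TPM) than male 5 and females 1 and 3. The part of these markers in the relation was not tested. With each sex centred on its own mean r was -0.947 (exact p = 0.00139, adjusted p = 0.0389), a test that permutes the centred values as if no mean had been taken out. Without centring, r in TPM ran from -0.988 to -0.930 when single libraries were left out and was -0.911 without female 3 and male 1, the libraries farthest from the median of *NR3C2*. In coverage the pair had r = -0.818 (exact p = 0.0403, adjusted p = 0.454), -0.954 to -0.742 with single libraries left out. Both sexes gave the same sign on both scales, but 3 animals per sex are too few for a test within a sex.

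*NR3C1* and *NR3C2* had r = -0.826 in TPM (exact p = 0.0458, adjusted p = 0.59; rho = -0.886, exact p = 0.0333, adjusted p = 0.233), -0.790 without female 1 and male 1. In coverage r was 0.667 (exact p = 0.146), from 0.444 to 0.786 with single libraries left out. *NR3C1* and *CRHBP* likewise had r = 0.737 in TPM (exact p = 0.1) and -0.795 in coverage (exact p = 0.0486, adjusted p = 0.454). The relations of the glucocorticoid receptor to both genes thus turned with the scale, and no direction is read from them.

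**Figure D5:**
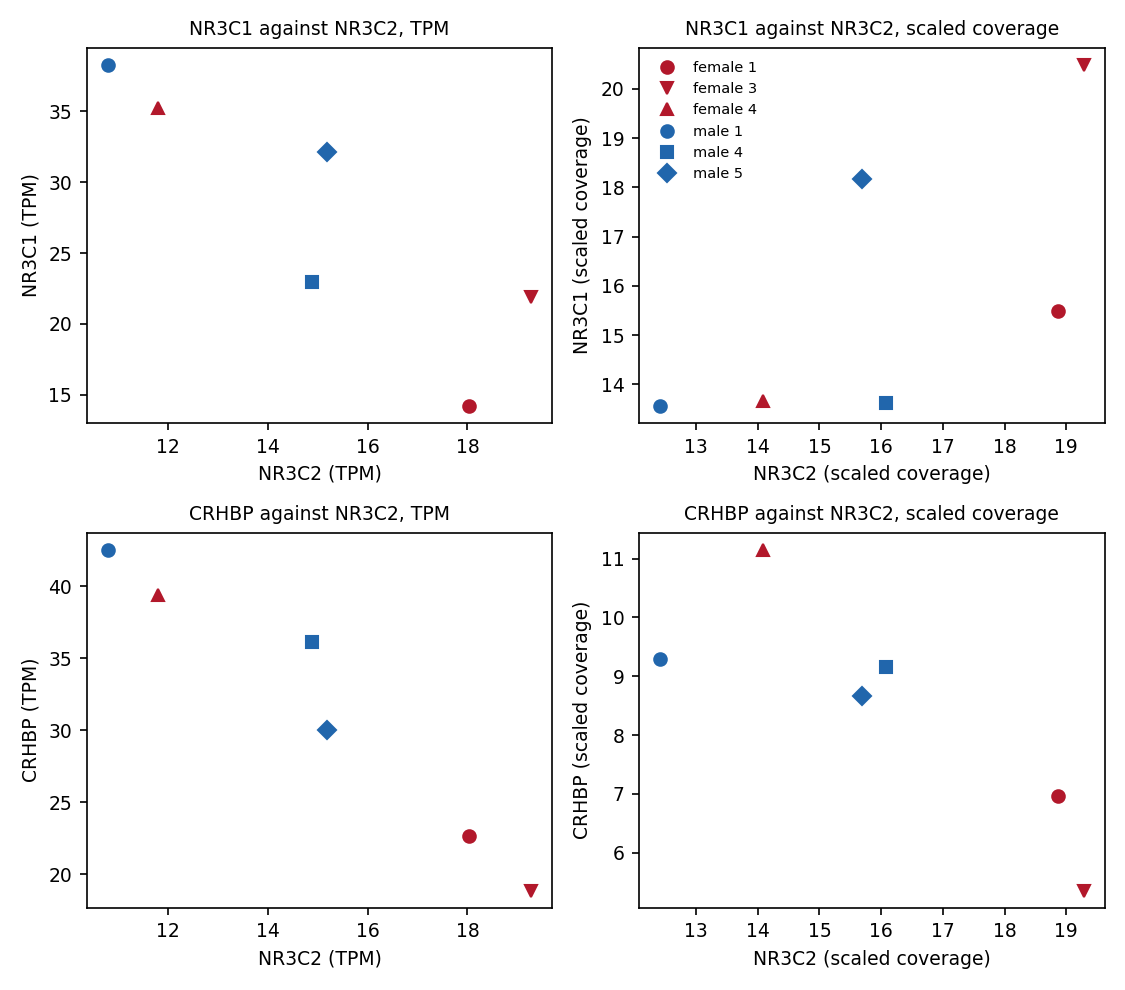
*NR3C1* (top) and *CRHBP* (bottom) against *NR3C2*, 1 point per library, in TPM (left) and scaled coverage (right); red symbols are females and blue symbols males, and axes do not start at 0. The upper panels slope in opposite directions, and both lower panels fall from left to right.

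Among the targets, *FKBP5* and *TSC22D3* had r = 0.677 (exact p = 0.0931; rho = 0.886, exact p = 0.0333, adjusted p = 0.233) in TPM and 0.597 in coverage (exact p = 0.194). Without females 3 and 4, r in TPM was 0.812. *FKBP5* and *ZBTB16* had r = 0.693 in TPM (exact p = 0.126) and 0.624 in coverage, but -0.374 in TPM without females 3 and 4. *TSC22D3* and *ZBTB16* had r = 0.00095 in TPM (exact p = 0.996) and -0.155 in coverage. *CRHR1* and *ZBTB16* had r = 0.597 in TPM (exact p = 0.21) and 0.952 in coverage (exact p = 0.0111, adjusted p = 0.311), where single left-out libraries gave 0.910 to 0.9897 and leaving out the 2 farthest gave 0.644. The last value rests on 4 libraries. With *FKBP5*, *TSC22D3* and *ZBTB16*, *NR3C1* had r of -0.226, -0.049 and -0.217 in TPM, and *NR3C2* 0.036, -0.256 and 0.399 (exact p from 0.451 to 0.954). In coverage these were -0.065, -0.337 and -0.108 for *NR3C1*, and -0.060, -0.481 and 0.007 for *NR3C2* (exact p from 0.31 to 0.986). With each sex centred, *NR3C2* and *ZBTB16* had r = 0.925 in TPM (exact p = 0.0292, adjusted p = 0.2625). Of the 28 pairs, 18 had the same sign on both scales.

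The loci whose TPM pattern was most like a member's over the 6 libraries were taken from 8620 named genes with a mean of at least 5 TPM. For *NR3C2* these were *RNF26* (r = 0.995), *NCAPD3* (0.994) and *PCDH1* (0.991), which in coverage had r of 0.934, 0.954 and 0.696. For *FKBP5* they were *VIM* (0.967), which encodes the intermediate filament vimentin, *SNX2* (0.962) and *PTCRA* (0.953), with 0.952, 0.648 and 0.473 in coverage. For *NR3C1* they were *SNAP47* (0.961), *RNF149* (0.947) and *RPL17li25* (0.946), and in coverage all 3 were negative, at -0.409, -0.488 and -0.383. With 6 points and shared libraries these values describe likeness alone, and 0.708% of the genes reached an r of 0.8 with *NR3C1*, 8.81% with *NR3C2* and 1.2% with *FKBP5*.

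The 6 lists of other pathway genes were set beside the members, 106 genes in all, of which 82 had a row and 65 entered the test. By limma, 0 of 65 differed between the sexes at an adjusted p under 0.1, beside 0.0174% of all loci, and 1 did at an unadjusted p under 0.05, beside 5.01% of all loci. The lists thus held no more differences than the background. The gene was *LCN2*, encoding the secreted iron-carrier-binding protein lipocalin-2, with 6.52 to 14.6 TPM in the females against 20.8 to 31.8 TPM in the males (-1.43, SE 0.32, limma adjusted p = 0.927). Of the 65 genes tested, the sexes did not overlap for *LCN2*, *DNAJB1*, *SRD5A1* and *SGK2*, beside 9.8% of all loci.

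Of the receptor chaperones and cofactors, 14 of 22 were tested and 0 differed at either threshold, with a median difference of 0.10. *STUB1*, a ubiquitin ligase of the chaperone system, had 458.5 ± 161 TPM (SD, n = 6), *HSPA4* 77.0 ± 15.6 TPM and *PPID*, another immunophilin of the HSP90 complex, 69.3 ± 6.75 TPM. The phosphatase *PPP5C* had 66.4 ± 12.5 TPM and the co-chaperone *BAG1* 64.2 ± 23.4 TPM. *DNAJB1*, an HSP40 chaperone, had the smallest p of the list (0.67, SE 0.31, limma adjusted p = 0.927). Its females (63.4 to 78.2 TPM) did not overlap its males (25.3 to 61.3 TPM), as for 9.8% of all loci. *HSP90AA1*, *DNAJA1*, *STIP1* and *ST13* were listed at 0 in all libraries and *HSPA8* had a mean of 0.872 TPM. These chaperones are used by nearly every cell, so a locus listed at 0 in these files does not show that the gene was silent.

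Of the peptide and receptor list, 7 of 14 were tested and 0 differed. *CRH* was the highest, followed by the vasopressin receptor *AVPR1A* at 4.39 ± 2.18 TPM and the melanocortin receptor *MC4R* at 2.97 ± 3.58 TPM, and the prohormone *POMC* and oxytocin (*OXT*) had 2.15 ± 1.71 and 2.07 ± 2.06 TPM. Of the steroid metabolism genes, 10 of 21 were tested and 0 differed. *HSD17B4* had 74.3 ± 11.1 TPM and *SRD5A1*, which reduces glucocorticoids, progesterone and androgens, 60.8 ± 9.5 TPM (-0.37, SE 0.17, limma adjusted p = 0.927), at 45.3 to 57.5 TPM in the females against 66.5 to 69.95 TPM in the males. *HSD17B10* had 56.6 ± 10.03 TPM, the mitochondrial translocator protein *TSPO* 38.4 ± 11.8 TPM and *SRD5A3* 5.89 ± 1.01 TPM. The cortisol-inactivating enzyme *HSD11B2* had a mean of 0.115 TPM and did not enter the test.

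Of the other steroid receptors, 3 of 7 were tested and 0 differed. *PGRMC1*, a membrane haem protein tied to progesterone, had 159 ± 22.5 TPM, *ESR1* 0.454 ± 0.402 TPM and *PGR* 0.35 ± 0.222 TPM. Of the genes known as glucocorticoid-induced in other tissues, 26 of 35 were tested, with a median difference of -0.14. The clock gene *PER1* was the highest of them at 1146 ± 103 TPM, ahead of *IGFBP1* (173 ± 45.9 TPM), *KLF9* (97.6 ± 20.6 TPM), *SESN1* (95.7 ± 23.2 TPM) and *RGS2* (55.4 ± 18.9 TPM), and *CDKN1C* had the next smallest p after *LCN2* (0.55, SE 0.27), followed by *CDKN1A* (0.64, SE 0.39), both cell-cycle inhibitors. Levels of the listed genes are given in TPM alone, and how well these values reflect each gene was not tested. Of the SGK family and substrates of SGK1, 5 of 7 were tested and 0 differed. *SGK3* had 14.0 ± 2.48 TPM and *SGK2* 8.22 ± 1.19 TPM, and the SGK1 substrates *NDRG1* and *NEDD4L* had 75.7 ± 25.9 and 55.0 ± 18.4 TPM. The sodium channel subunit *SCNN1A* had 1.86 ± 1.1 TPM. *NDRG1*, which is also abundant in myelin-forming cells, was higher in females by mean (0.64, SE 0.29, limma adjusted p = 0.927). The sexes overlapped for *NDRG1*, at 73.0 to 109.9 TPM in the females against 42.5 to 88.5 TPM in the males. Oligodendrocyte markers were higher in every female, and their part in this difference was not tested.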

How the data were processed

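PFC RNA from 6 animals was measured with 1 library each. Per the labels and the study's methods, the authors aligned poly(A)-selected paired-end reads to TS_3.0 with HISAT2 (2.2.1), assembled and merged transcripts with StringTie (2.2.1) and deposited, for each animal, gene tables with TPM, FPKM and coverage. The deposited TPM and FPKM are summed over the transcripts of a locus, and the deposited coverage is a read-depth signal not scaled for library size. Rows of 1 gene ID and chromosome were summed. TPM of the listed loci summed to 950500 to 971500, and the median coverage of detected loci (1 TPM or more in 3 or more libraries) was 5.12 to 6.69 per library. Read counts were not used here, so no counting error is given.

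Sexes were compared with limma (3.58.1, trend) in R (4.3.3) on log2(TPM + 1), over loci on chromosomes 1 to 30 and X, less male-specific stretches of X and 26, plus the contig with *TSC22D3*, with 0.1 TPM or more in 3 or more libraries and Benjamini-Hochberg adjustment (threshold 0.1). Fold changes are on the log2(TPM + 1) scale, which understates changes of low genes. The authors' methods used DESeq2 on counts; TPM are not counts. Correlations used exact permutations of the 6 libraries (720 orders) and ratios exact sign flips. Coverage was scaled between libraries by median ratios. Scripts were tested on simulated data. The members and lists were chosen with earlier results of these data known. Named were all members, of each list the 5 highest and the 3 with the smallest p (1 gene that this rule takes is not reported here), and for *NR3C1*, *NR3C2* and *FKBP5* the 3 most alike genes; members of the chaperone list at 0 and *HSD11B2* were named after their values were seen. Animals of a sex are the replicates. Alternatives were other pseudocounts, filters, scalings, FPKM, stranded rows, a replicate block, each library left out and, added after the data were seen, coverage.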

Additional observations from a re-analysis of the deposited data

How the results depend on the processing

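The count of stress-hormone genes that differed between the sexes stayed at 0 of 8 under all 20 alternatives, while the count over all loci was 5 and became 3 with the replicate block, 1 without limma's trend, 3 in coverage and 2 to 8 with single libraries left out. The animal number as a replicate block gave 0 of 8 genes (*ZBTB16* -0.47, *NR3C1* -0.39), and the difference of *FKBP4* went from 0.36 to 0.17. Only 2 numbers are shared, and deviations of same-numbered libraries correlated at 0.00538 and 0.0341 over detected loci, so the numbers were not taken as pairs. The difference of *NR3C1* reversed in coverage (0.12). With single libraries left out, that of *CRHR1* ran from -0.526 to 0.0324 (without male 4) and that of *TSC22D3* from -0.32 to 0.19. Correlated pairs past adjustment rose from 0 to 1 with each sex centred and to 1 with Spearman's rho, in both *NR3C2* with *CRHBP*. Pairs at an absolute r of 0.8 numbered 1 with stranded rows alone, 4 with each sex centred and 5 with Spearman's rho, against 2. The r of *NR3C1* and *NR3C2* was 0.667 in coverage, and its exact p was 0.05 to 0.125 with single libraries left out; that of *NR3C2* and *CRHBP* kept its sign and an unadjusted p under 0.05 in all 13 alternatives. In coverage the mean log2 ratio was -0.0239 for *NR3C1* to *NR3C2*, 1.48 for *FKBP4* to *FKBP5* and -0.63 for *CRHBP* to *CRHR1*. The causes were not tested. The number of animals, 3 per sex, limits what could be detected.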
